A study of Mus musculus with 8 samples.

Results

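Axon guidance genes encode cell surface receptors and their ligands that steer cells and growing axons by attraction or repulsion. The set described here holds 63 genes of the 43629 in the deposited count table. They were picked by a symbol pattern, with earlier results of these data known. The pattern covers Eph receptors, ephrins, semaphorins, class A to D plexins, neuropilins, Slit ligands and Robo receptors. Of the 63 genes, 60 encode guidance proteins. The other 3 (Plxna4os1, Plxna4os2 and Plxna4os3) are antisense RNAs at the Plxna4 locus that match the plexin symbol pattern. The libraries came from 4 tumor and 4 small intestine samples of mice with an Apc mutation, on a C57B6/129 background, without treatment. Apc is the tumor suppressor that restrains Wnt signaling, and every sample of both groups carried the mutant genotype. The labels give neither the Apc allele nor the age or diet of the animals, and do not say that each library is another animal; the p-values therefore reflect only how these libraries vary, which may be technical.

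Eph receptors are tyrosine kinases that bind ephrins on neighboring cells, and both partners signal into their own cell. In the intestinal crypt, some EphB receptors are known as targets of beta-catenin and TCF and mark the crypt base. Ephrin-B ligands increase toward the villus, and mutual repulsion between these receptors and ligands keeps the cell populations apart. Semaphorins signal through plexins, with neuropilins as co-receptors for the secreted class 3 members, and Slit ligands signal through Robo receptors. These systems also act in blood vessels, fibroblasts, enteric neurons and immune cells, all of which a piece of gut or tumor can contain.

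Library totals ran from 53856561 to 84433335 gene-assigned reads, and levels are given as CPM, the reads of a gene relative to a library size scaled by the trimmed mean of M-values (TMM), which allows 1 gene to be compared between libraries. Levels of different genes are compared as deposited FPKM, which also accounts for gene length. A gene was called when its Benjamini-Hochberg adjusted p over all genes tested was under 0.05 in edgeR's quasi-likelihood test, and "rose" or "fell" below means called in tumor relative to small intestine. Of all 17029 genes tested, 38.9% were called higher and 35.4% lower, 74.3% together. Tissue markers were compared as summed levels: 6 of 6 enterocyte markers fell (summed 846 to 1349 CPM in tumor, 29759 to 40538 CPM in small intestine) and 7 of 7 Wnt target genes rose (1546 to 1841 CPM against 93.5 to 166 CPM). Cell types also differed: 10 of 10 blood endothelial markers rose (summed 254 to 323 CPM against 14.3 to 38.3 CPM), as did 6 of 7 fibroblast markers (1168 to 1871 CPM against 22.1 to 68.1 CPM), while 4 of 4 T cell markers fell (9.44 to 19.4 CPM against 36.1 to 143 CPM). No marker of these 5 lists was at 0 in either tissue. Other immune lists did not share the direction of the T cell list throughout: 4 of 5 macrophage markers rose and 3 of 4 B and plasma cell markers fell. Of the enteric neuron markers, 3 of the 4 tested rose. Of 5 pan-epithelial markers, 4 fell and 1 rose (summed 4769 to 7028 CPM in tumor, 12517 to 18288 CPM in small intestine). In bulk tissue, fewer cells of a type and less RNA per cell cannot be told apart, and the part of cell composition in the differences below was not tested.

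Most guidance genes were higher in tumor. Of the 63 genes, 55 passed the low-count filter, and 36 of them (65.5%) rose, 13 (23.6%) fell and 6 were not called. The median log2 fold change of the 55 was 2.06, against 0.07 over all genes tested. Of the 55, 35 rose by at least 2-fold, beside 27.9% of all genes tested, and 11 fell by at least 2-fold, beside 22.8%. In CPM, 35 of the 55 had tumor libraries entirely above and 13 entirely below the small intestine libraries, against 37.5% and 33.0% of all genes tested. Genes that pass the filter through their level in 1 tissue alone tend to differ, so these counts describe the set and are not a test of it. The balance between tissues rests on the scaling: with library totals in place of TMM, the all-gene median was 0.86 higher (log2), 40 of the 55 were called higher (beside 62.0% of all genes) and 9 lower (beside 17.6%). DESeq2 called 36 higher and 13 lower, beside 39.1% and 36.8% of all genes. With the replicate number as a block, 36 were called higher and 12 lower, beside 37.0% and 32.8%. In the FPKM table (limma), 35 guidance genes had a mean FPKM of at least 1, and 24 of these (68.6%) were called higher and 8 (22.9%) lower, shares near the 64.6% and 18.1% of all genes tested there.

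**Figure D1:**
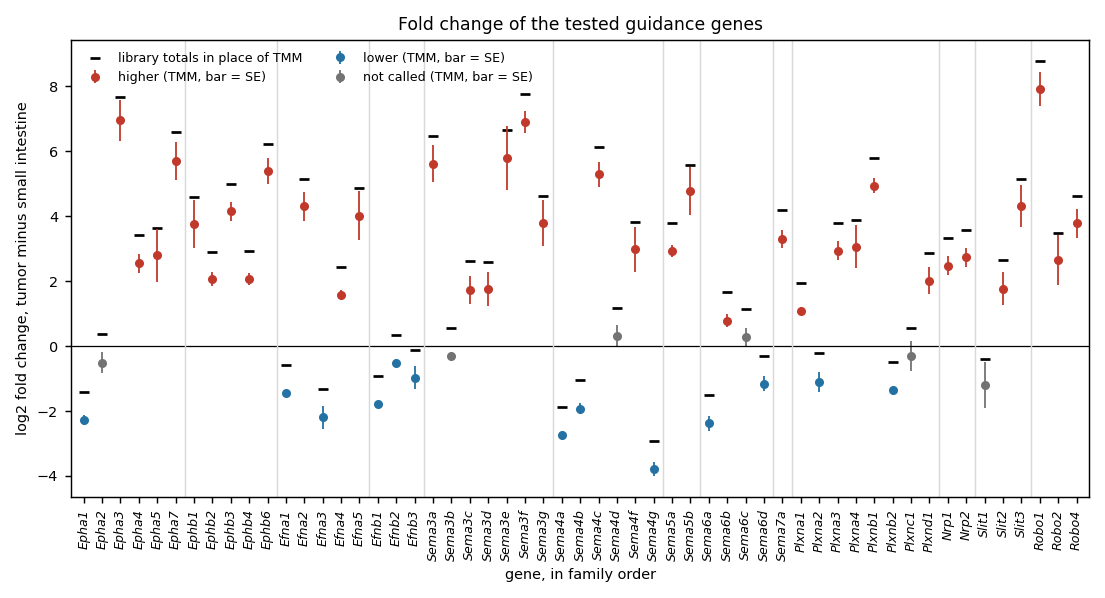
Log2 fold change (tumor minus small intestine, y axis) of the 55 tested guidance genes in family order (x axis); points are TMM-scaled estimates with their standard errors, and black dashes are the estimates with library totals. The EphB receptors, neuropilins and Robo receptors all lie above 0 and reach 7.92 for Robo1, Sema4g is the lowest at -3.78, and the dashes of Efnb2, Sema3b, Epha2 and Plxnc1 lie above 0 while their points lie below it.

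EphB receptors rose as a family. All 5 were called higher, with log2 fold changes from 2.06 to 5.38, and all 5 rose with library totals too. Ephb2, the EphB receptor best known from the crypt base, was at 143, 138, 128 and 129 CPM in the 4 tumor libraries and at 32.0, 25.2, 48.4 and 23.3 CPM in the 4 small intestine libraries. Its log2 fold change was 2.06 ± 0.22 (SE, n = 4 per tissue; edgeR adjusted p = 2.15e-05), and the lowest tumor library stood well above the highest small intestine library. Ephb3, its close relative, was at 129, 162, 169 and 87.4 CPM against 9.97, 5.38, 9.57 and 5.92 CPM, a log2 fold change of 4.15 ± 0.29 (edgeR adjusted p = 1.66e-06). The groups were again apart, with tumor replicate 4 lowest among the tumors. Ephb4, known from veins, was at 166, 169.5, 153 and 139 CPM against 35.8, 31.8, 54.1 and 28.9 CPM, with a log2 fold change of 2.06 ± 0.19. Ephb6, whose kinase domain lacks catalytic activity, was at 21.2, 20.8, 18.9 and 20.8 CPM against 0.712, 0.707, 0.378 and 0.155 CPM (log2 5.38 ± 0.41). Ephb1 rose from a mean of 0.0173 to 0.268 CPM (log2 3.77, and 5.09 without small intestine replicate 1), on 4 small intestine reads in all. In GRCm38, Ephb2 (ENSMUSG00000028664) lies on chromosome 4 from 136647539 to 136835988, Ephb3 (ENSMUSG00000005958) on chromosome 16 from 21204755 to 21223305 and Ephb4 (ENSMUSG00000029710) on chromosome 5 from 137350109 to 137378669.

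The makeup of the EphB family also differed between tissues. On the FPKM scale, Ephb4 (39.0 ± 3.31), Ephb3 (35.5 ± 9.53) and Ephb2 (25.8 ± 2.15) were the leading EphB genes of tumor (SD, n = 4), and the spreads of the first pair overlapped. In small intestine the order was Ephb4 (5.13 ± 1.68), Ephb2 (3.52 ± 1.33) and Ephb3 (1.22 ± 0.336). Ephb3 made up 33.1 ± 5.98% of summed EphB FPKM in tumor and 12.4 ± 2.14% in small intestine, while Ephb2 made up 24.5 ± 2.72% and 34.6 ± 1.41%. The ratio of Ephb3 to Ephb2, which does not depend on the scaling between libraries, was 0.938 to 1.83 in the tumor libraries and 0.278 to 0.431 in the small intestine libraries.

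Promoters of EphB receptors are shown because the genes rose together and the family includes known TCF targets. The 250 bases before the RefSeq start (GRCm38.p6) were searched on both strands for the TCF/LEF core, spelled CTTTGAT or CTTTGAA. No match was found before the starts of Ephb1, Ephb2, Ephb3, Ephb4 or Ephb6, which says only that these letters are not in this window. The window of Ephb2 (chr4:136836013-136836262, minus strand) and that of Ephb4 (chr5:137349859-137350108, plus strand) read as follows, 5′ to 3′.
Ephb2: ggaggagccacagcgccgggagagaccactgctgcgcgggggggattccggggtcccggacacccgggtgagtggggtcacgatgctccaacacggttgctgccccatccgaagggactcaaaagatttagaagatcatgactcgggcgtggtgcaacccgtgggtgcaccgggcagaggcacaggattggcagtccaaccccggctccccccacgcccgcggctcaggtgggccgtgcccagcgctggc
Ephb4: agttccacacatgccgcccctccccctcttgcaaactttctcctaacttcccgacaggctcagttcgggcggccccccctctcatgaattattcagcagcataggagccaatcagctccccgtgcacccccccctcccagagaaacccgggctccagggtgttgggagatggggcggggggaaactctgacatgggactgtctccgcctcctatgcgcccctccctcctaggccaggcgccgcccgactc
Of 53 guidance genes with a RefSeq window, 3 (5.66%) held a match, against 8.63% of all 27025 genes with a window. These were Nrp2, Sema3e and Epha2, of which Nrp2 and Sema3e rose. In the Nrp2 window, a CTTTGAT begins 146 bases before the start. The Sema3e window (chr5:14025026-14025275, plus strand) holds a CTTTGAA on the reverse strand, printed in capitals as it reads on the strand of the gene.
Sema3e: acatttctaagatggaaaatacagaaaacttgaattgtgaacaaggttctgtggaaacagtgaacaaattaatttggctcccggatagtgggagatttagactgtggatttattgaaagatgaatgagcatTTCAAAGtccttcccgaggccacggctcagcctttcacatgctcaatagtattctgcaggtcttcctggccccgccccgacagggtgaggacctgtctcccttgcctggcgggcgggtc

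Ephrin-B ligands, the partners of EphB receptors, did not follow them. Efnb1, the ephrin-B with the highest mean FPKM over the 8 libraries, was at 66.2, 64.2, 69.6 and 54.2 CPM in tumor and at 212, 232, 201 and 233 CPM in small intestine. It fell by 1.79 ± 0.11 on the log2 scale (SE; edgeR adjusted p = 5.96e-07), and every tumor library was below every small intestine library. Efnb2, known from arteries, was at 74.6, 79.8, 69.1 and 74.1 CPM against 86.2, 127, 105 and 109 CPM. Its log2 fold change was -0.52 ± 0.12 with TMM (edgeR adjusted p = 0.0031) but 0.35 with library totals (edgeR adjusted p = 0.012) and 0.38 in the FPKM table (limma adjusted p = 0.0124), so its direction depends on the scaling. Efnb3 was at 1.09 CPM or less in each library and had a log2 fold change of -0.97 (edgeR adjusted p = 0.0341), a call lost with library totals (-0.12, edgeR adjusted p = 0.775), without a low-count filter (-0.88, 0.0826), with the replicate block (-1.02, 0.0544) and when tumor replicate 1, 2 or 4 or small intestine replicate 1 or 3 was left out (adjusted p of 0.0501 to 0.106). Within each library, summed EphB FPKM was 2.15 to 2.57 times summed ephrin-B FPKM in tumor and 0.121 to 0.266 times in small intestine. Efnb2 made up 48.1 ± 3.46% of ephrin-B FPKM in tumor and 27.5 ± 2.27% in small intestine (SD, n = 4).

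EphA receptors split between a pair of abundant members and several scarce ones. Epha1, an epithelial receptor that binds ephrin-A1, was at 32.8, 37.3, 31.0 and 34.5 CPM in tumor against 160.5, 141, 143 and 211 CPM in small intestine. It fell by 2.27 ± 0.14 (SE; edgeR adjusted p = 8.9e-07), and the groups were far apart; 6.01% of its exonic bases are shared with Zyx on the other strand, which stood at 110.0 against 261 CPM, and the strand setting of the counts is not given. Epha2, the EphA gene with the highest mean FPKM in tumor, was at 89.8, 156, 95.0 and 89.6 CPM against 89.4, 213, 98.4 and 212 CPM. Those groups overlapped, and no call was made (log2 -0.51 ± 0.33, edgeR adjusted p = 0.181); the estimate changed sign with library totals. The ratio of Epha1 to Epha2 FPKM was 0.294 to 0.464 in tumor and 0.827 to 2.25 in small intestine, so Epha2 exceeded Epha1 in each tumor library, and Epha1 exceeded Epha2 in 3 of 4 small intestine libraries.

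Of the scarcer EphA receptors, Epha3, Epha4, Epha5 and Epha7 rose. Epha4, which binds both ephrin classes, was at 15.7, 12.7, 14.4 and 12.5 CPM in tumor and at 1.63, 2.09, 3.95 and 1.76 CPM in small intestine (log2 2.55 ± 0.29, edgeR adjusted p = 3.65e-05). Epha7 was at 8.14, 8.33, 7.10 and 5.12 CPM against 0.0347, 0.0531, 0.126 and 0.328 CPM (log2 5.70 ± 0.59; 6.66 when small intestine replicate 4 was left out). For both genes every tumor library exceeded every small intestine library. Epha3 had 264 reads in tumor and 1 in small intestine, which is 175-fold after scaling (95% exact binomial interval 31.1 to 6935, counting error only). Its fitted log2 fold change was 6.95, and 8.79 without small intestine replicate 4, which held the only read. Epha5 rose from 0.0268 to 0.199 CPM (log2 2.79, and 4.64 without small intestine replicate 4). Epha6, Epha8 and Epha10 were not tested, with 0, 8 and 1 reads over the tumor libraries and 0 in small intestine.

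**Figure D2:**
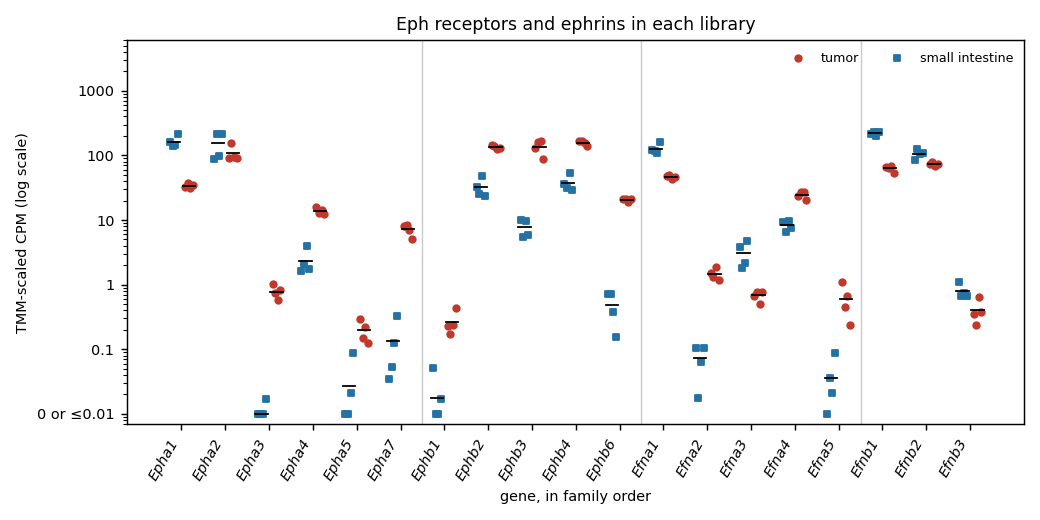
TMM-scaled CPM (log axis) of each tested Eph receptor and ephrin in the 4 tumor (circles) and 4 small intestine (squares) libraries; lines are means and values at or under 0.01 are drawn at the bottom. The EphB receptors are higher in tumor throughout, Epha1, Efna1 and Efnb1 are lower, and Epha2 overlaps between tissues; Efnb2 is lower on this scale but higher with library totals.

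Ephrin-A ligands, which are held on the cell surface by a lipid anchor, went both ways. Efna1, the most abundant, was at 47.5, 49.4, 43.0 and 46.4 CPM in tumor and at 121, 116, 109.6 and 161 CPM in small intestine. It fell by 1.45 ± 0.13 (SE; edgeR adjusted p = 7.27e-06), with no overlap of the groups. Efna4 rose, from 9.36, 6.46, 9.78 and 7.52 CPM in small intestine to 23.4, 27.4, 26.9 and 20.7 CPM in tumor (log2 1.57 ± 0.17). Efna4 made up 33.2 ± 2.88% of ephrin-A FPKM in tumor and 5.79 ± 1.54% in small intestine, and Efna1 63.8 ± 3.17% and 92.6 ± 1.41% (SD, n = 4). Efna2 was at 1.501, 1.30, 1.86 and 1.18 CPM against 0.104, 0.0177, 0.0630 and 0.104 CPM (log2 4.30 ± 0.44), a rise at a low level. Efna5 rose by 4.005, and by 4.90 without small intestine replicate 4, at 1.08 CPM or less in each library. Efna3 was at 0.662, 0.780, 0.503 and 0.778 CPM against 3.77, 1.84, 2.18 and 4.67 CPM and fell by 2.19 ± 0.35. Of its exonic bases, 14.1% are shared with the antisense gene Gm15998, whose mean levels were 0.138 CPM (tumor) and 3.85 CPM (small intestine). The strand setting of the counts is not given, so the source of reads over these shared bases is not known.

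Class 3 semaphorins, the secreted class, rose in 6 of 7 cases. Sema3f, a ligand of neuropilin 2, was at 154, 141, 139.7 and 116 CPM in tumor and at 2.01, 0.796, 0.756 and 1.02 CPM in small intestine. Its log2 fold change was 6.90 ± 0.33 (SE; edgeR adjusted p = 1.87e-07), among the largest of the set. Sema3b, the most abundant member over both tissues, was at 113, 118, 107 and 78.8 CPM against 123.1, 125, 119 and 153 CPM. It did not pass the test at -0.32 ± 0.14 (edgeR adjusted p = 0.0649) and was called higher, at 0.55, with library totals (edgeR adjusted p = 0.00253). The family therefore had another leading gene in each tissue: Sema3f held 48.1 ± 1.64% of class 3 FPKM in tumor and 0.883 ± 0.354% in small intestine, and Sema3b 30.1 ± 2.13% and 86.6 ± 6.27% (SD, n = 4). Sema3f (ENSMUSG00000034684) lies on chromosome 9 from 107681500 to 107710475.

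By FPKM, the other class 3 members were below Sema3f and Sema3b in tumor. In small intestine, Sema3c held 12.1 ± 6.07% of class 3 FPKM (SD, n = 4) and stood above Sema3f. Sema3e, which binds plexin D1 directly, was at 18.3, 10.4, 15.5 and 5.75 CPM in tumor and at 0.347, 0.531, 0 and 0 CPM in small intestine (log2 5.79 ± 0.98, edgeR adjusted p = 0.000467; 6.67 without small intestine replicate 2). Its tumor libraries varied widely, with replicate 4 lowest, yet all stood above small intestine. Sema3c rose from 26.0 ± 16.3 to 86.7 ± 12.1 CPM (SD, n = 4; log2 1.74 ± 0.43). Sema3a, the classic axon repellent, rose by 5.62 and Sema3g, known from endothelium, by 3.79 (4.68 without small intestine replicate 1), at no more than 3.21 and 3.59 CPM. Sema3d rose by 1.75, at 0.545 CPM or less.

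Membrane-bound class 4 semaphorins moved in opposite directions. Sema4a, the most abundant semaphorin of small intestine by FPKM, was at 83.6, 81.8, 86.1 and 65.7 CPM in tumor and at 493, 584, 475 and 579.8 CPM in small intestine. It fell by 2.75 ± 0.13 (SE; edgeR adjusted p = 1.82e-07). Sema4g was at 24.1, 27.4, 37.6 and 28.4 CPM against 479, 275, 443 and 420.0 CPM and fell by 3.78 ± 0.22 (edgeR adjusted p = 4.73e-07), the largest fall of the set. Sema4b fell by 1.93, from 179.9 ± 42.6 to 47.3 ± 1.99 CPM (SD, n = 4). By contrast, Sema4c, a ligand of plexin B2, was at 50.6, 53.6, 45.8 and 43.0 CPM in tumor and at 2.40, 0.760, 0.840 and 0.932 CPM in small intestine (log2 5.28 ± 0.37, edgeR adjusted p = 1.71e-06); 7.27% of its exonic bases are shared with D430040D24Rik on the other strand, at 1.94 against 0.153 CPM. Sema4f rose from 0.868, 1.31, 0.861 and 0.0345 CPM to 5.69, 5.37, 6.27 and 6.80 CPM (log2 2.97 ± 0.68). Sema4d, the ligand of plexin B1 that is abundant on T cells, ranged from 40.0 to 52.7 CPM in tumor and from 16.2 to 61.1 CPM in small intestine, without a call (log2 0.31, edgeR adjusted p = 0.427), though it was called higher, at 1.16, with library totals (edgeR adjusted p = 0.0144). The ratio of Sema4c to Sema4a FPKM was 0.386 to 0.434 in tumor and 0.00102 to 0.00392 in small intestine.

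The remaining semaphorins were led by Sema7a and Sema5a. Sema7a, a lipid-anchored semaphorin that signals through integrins and plexin C1, was at 308, 288, 250.4 and 175 CPM in tumor and at 22.5, 27.6, 17.0 and 36.9 CPM in small intestine. It rose by 3.30 ± 0.27 (SE; edgeR adjusted p = 4.22e-06) and, at 81.9 ± 18.5 FPKM, had the highest mean of all guidance genes in tumor (SD, n = 4). In tumor replicate 4, however, Plxnb2 exceeded Sema7a on the FPKM scale. Sema5a was at 197, 229, 209 and 158 CPM against 30.5, 19.6, 24.1 and 30.5 CPM (log2 2.92 ± 0.18), with wide separation. Sema5b had 100 reads in tumor and 2 in small intestine, a ratio of 33.1 (95% exact binomial interval 8.93 to 277, counting error only). In class 6, Sema6a fell by 2.38 ± 0.23, from 127, 152, 103 and 184 CPM to 31.8, 33.0, 25.7 and 18.5 CPM. Sema6d was at 27.2, 20.1, 24.6 and 13.9 CPM in tumor and at 44.9, 62.6, 45.0 and 38.3 CPM in small intestine; it fell by 1.15 with TMM but was not called with library totals (-0.30, edgeR adjusted p = 0.243). Sema6b rose by 0.79 ± 0.19, from 4.31, 5.08, 5.08 and 5.40 CPM to 10.3, 8.49, 9.21 and 6.26 CPM. Sema6c, at 1.38 CPM or less, was not called (log2 0.28, edgeR adjusted p = 0.37) and was called higher with library totals (1.14, edgeR adjusted p = 0.00494).

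**Figure D3:**
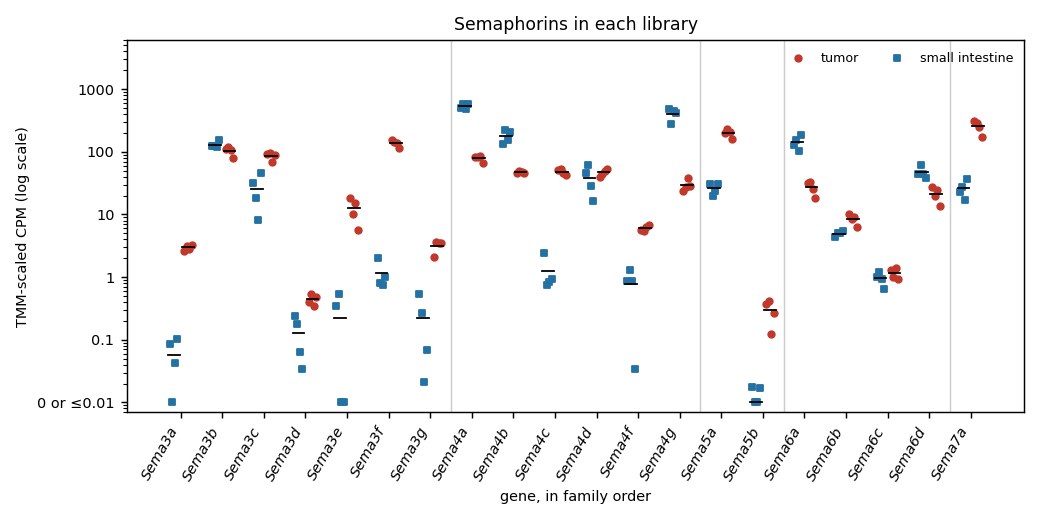
TMM-scaled CPM (log axis) of each semaphorin in the 4 tumor (circles) and 4 small intestine (squares) libraries; lines are means and values at or under 0.01 are drawn at the bottom. Sema3f, Sema4c, Sema5a and Sema7a are higher in tumor without overlap, Sema4a, Sema4b, Sema4g and Sema6a are lower, and Sema4d and Sema6c overlap.

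Plexins, the semaphorin receptors, were dominated by Plxnb2 in both tissues. Plxnb2 was at 308, 309, 298 and 314 CPM in tumor and at 741, 835, 643 and 937 CPM in small intestine, a fall of 1.36 ± 0.13 (SE; edgeR adjusted p = 1.2e-05) with groups apart. Plxnb1, the receptor of Sema4d, was at 162, 157, 149 and 159 CPM against 7.02, 3.89, 3.57 and 5.95 CPM and rose by 4.94 ± 0.23 (edgeR adjusted p = 1.67e-07). Plxnb2 held 64.2 ± 1.51% of plexin FPKM in tumor and 95.1 ± 1.39% in small intestine, and Plxnb1 17.5 ± 1.29% and 0.194 ± 0.0720% (SD, n = 4; 0.558% of summed CPM in small intestine). Among class A plexins, which pair with neuropilins, Plxna1 rose by 1.08 ± 0.13 and Plxna3 by 2.94 ± 0.29. Plxna4 was at 1.52, 2.80, 2.40 and 2.05 CPM against 0.625, 0.283, 0.0420 and 0.0863 CPM (log2 3.06 ± 0.66; 3.95 without small intestine replicate 1). Plxna2 was at 35.2, 37.0, 41.9 and 27.7 CPM against 73.9, 63.4, 38.9 and 126 CPM; it fell by 1.09 ± 0.31 with overlapping groups, and was not called with library totals (-0.21, edgeR adjusted p = 0.512).

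Plxnd1, known from endothelium, rose by 2.02 ± 0.40, from 8.67 ± 5.36 to 35.1 ± 1.28 CPM (SD, n = 4). Plxnc1 ranged from 2.07 to 3.97 CPM in tumor and from 1.52 to 5.82 CPM in small intestine, without a call (log2 -0.30, edgeR adjusted p = 0.563), and its sign changed with library totals. Plxnb3 was not tested, with 49 tumor and 11 small intestine reads. The antisense RNA Plxna4os1 had 33 and 24 reads, with 0.0993, 0.0124, 0.112 and 0.169 CPM in the tumor libraries against 0.243, 0.0354, 0.126 and 0.0345 CPM, which overlap; Plxna4os2 had 1 read in all and Plxna4os3 none. Both neuropilins rose. Nrp1, which also binds vascular endothelial growth factor, was at 15.7, 13.5, 14.1 and 15.5 CPM in tumor and at 4.19, 2.74, 2.04 and 1.57 CPM in small intestine (log2 2.48 ± 0.29, edgeR adjusted p = 4.01e-05). Nrp2, the Sema3f receptor, was at 21.7, 17.7, 18.0 and 16.6 CPM against 4.46, 2.88, 1.93 and 1.85 CPM (log2 2.73 ± 0.29, edgeR adjusted p = 2.2e-05). Their shares of neuropilin FPKM were close in both tissues, at 48.9 ± 2.80% for Nrp1 in tumor and 51.8 ± 0.857% in small intestine.

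**Figure D4:**
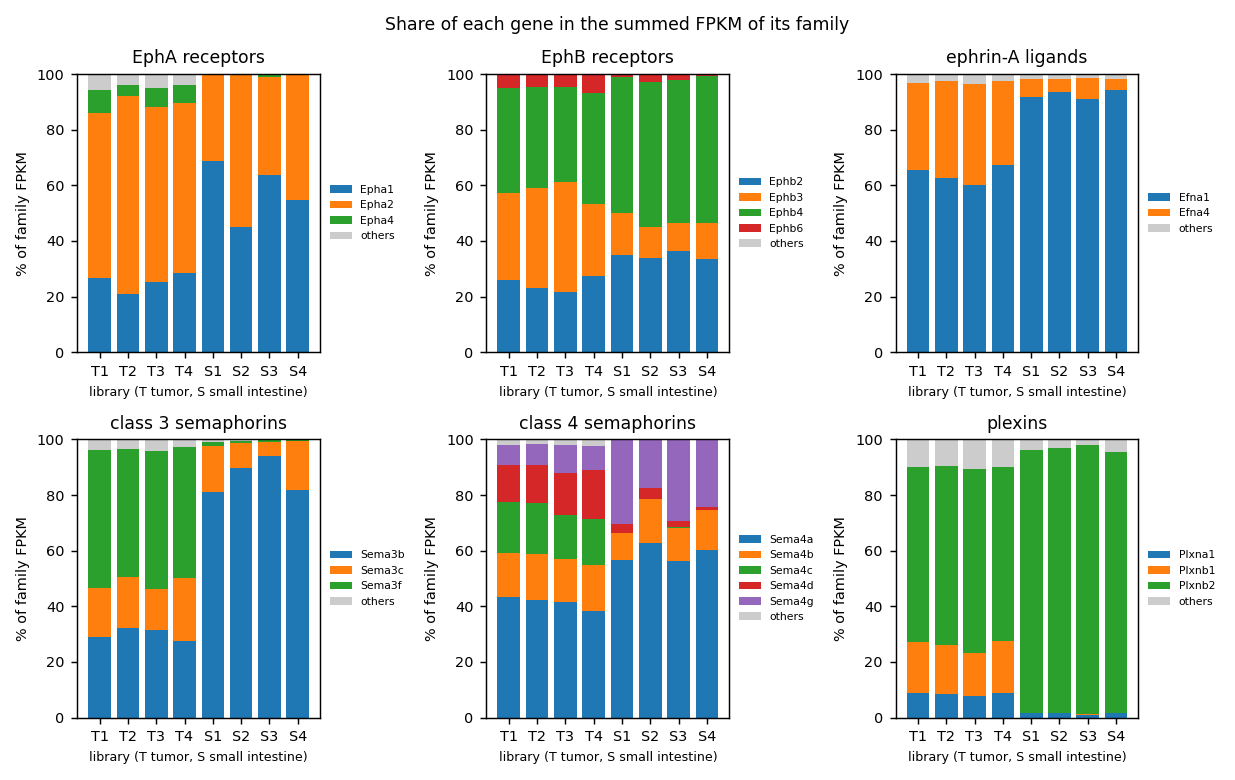
Percentage of summed family FPKM held by each gene (y axis) in each tumor (T) and small intestine (S) library for 6 families; genes under 5% in both tissue means are pooled as others. Sema3f, Sema4c, Plxnb1, Ephb3 and Efna4 take larger shares in each tumor library than in any small intestine library, and Sema3b, Plxnb2 and Efna1 smaller ones.

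Robo receptors rose, and Robo1 had the largest log2 fold change of the set. Robo1 was at 133, 132, 116 and 145 CPM in tumor and at 1.09, 0.672, 0.105 and 0.259 CPM in small intestine (log2 7.92 ± 0.52, SE; edgeR adjusted p = 1.09e-06; 8.52 without small intestine replicate 1). It made up 85.4 ± 1.95% of Robo FPKM in tumor and 15.9 ± 5.12% in small intestine (SD, n = 4; 29.8% of summed CPM), and its gene (ENSMUSG00000022883) lies on chromosome 16 from 72308306 to 73046095. Robo4, the endothelial family member, was at 8.66, 9.61, 8.03 and 8.29 CPM against 1.09, 0.831, 0.231 and 0.345 CPM (log2 3.78 ± 0.45, edgeR adjusted p = 5.06e-05). Robo2 rose by 2.64 ± 0.76, to 3.54 ± 0.605 CPM, and by 3.52 without small intestine replicate 1. Robo3 was not tested, with 34 tumor and 5 small intestine reads. Among the small intestine libraries, replicates 1 and 2 were higher in Robo1, Robo2, Robo4, Nrp1 and Plxnd1, genes chosen after their values were seen, than replicates 3 and 4. Other guidance genes did not follow this order, among them Ephb4 (35.8, 31.8, 54.1 and 28.9 CPM in small intestine) and Slit2, which was highest in replicate 4. The same replicates 1 and 2 had summed blood endothelial markers of 38.3 and 30.4 CPM, against 14.3 and 16.6 CPM. Their summed fibroblast markers were 68.1 and 62.7 CPM, against 26.1 and 22.1 CPM. Tuft markers, B and plasma cell markers and the pan-immune marker Ptprc were also higher in replicates 1 and 2. Summed enterocyte markers were lower there (29759 and 31930 CPM against 34631 and 40538 CPM), as were goblet, enteroendocrine and smooth muscle markers. The other marker lists followed neither order, and the part of cell composition in these differences was not tested.

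Slit ligands stayed at low levels. Slit2 was at 7.43, 7.52, 9.12 and 2.03 CPM in tumor and at 2.40, 1.18, 1.05 and 3.002 CPM in small intestine. It rose by 1.77 ± 0.50 (SE; edgeR adjusted p = 0.00992), but tumor replicate 4 lay within the small intestine range. Slit3 was at 3.32, 2.53, 4.26 and 1.65 CPM against 0.330, 0.0707, 0.0210 and 0.155 CPM (log2 4.31 ± 0.64; 5.08 without small intestine replicate 1). Slit1 had 34 tumor and 53 small intestine reads and did not pass the test (log2 -1.21, edgeR adjusted p = 0.147). On the FPKM scale, Robo1 in tumor (19.5 ± 2.03) exceeded the summed Slits (2.17 ± 0.939; SD, n = 4).

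**Figure D5:**
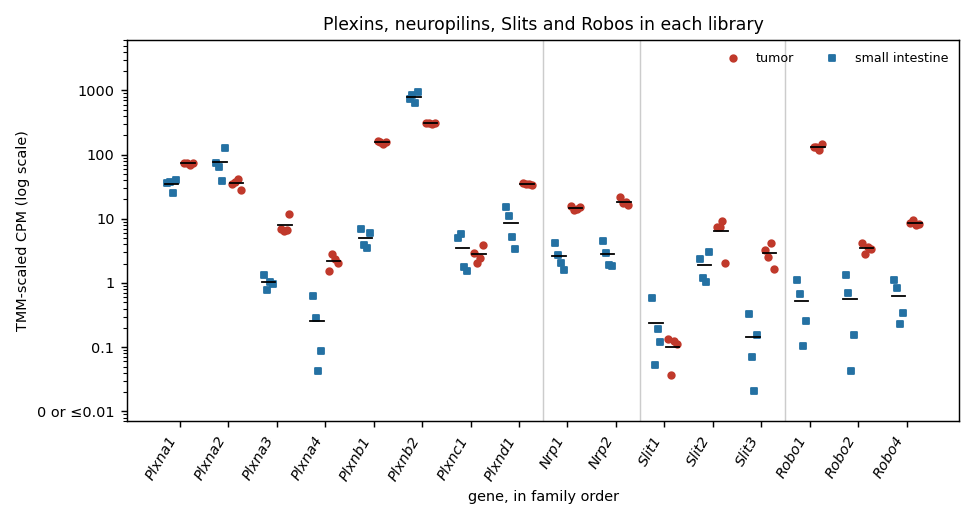
TMM-scaled CPM (log axis) of each tested plexin, neuropilin, Slit and Robo gene in the 4 tumor (circles) and 4 small intestine (squares) libraries; lines are means. Robo1 lies above 100 CPM in each tumor library and near or below 1 CPM in small intestine, Plxnb2 is the highest gene and lower in tumor, and Slit1, Plxnc1, Plxna2 and Slit2 overlap.

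Partners and effectors of these systems were called in shares near those of all genes. Of 49 listed genes, 48 were found and 43 tested; 18 (41.9%) rose and 17 (39.5%) fell, beside 38.9% and 35.4% of all genes, 8 were not called, and the median was a log2 fold change of -0.06, against 0.07 over all genes. With library totals, 26 (60.5%) were called higher and 8 (18.6%) lower, beside 62.0% and 17.6%. Slit and Robo effectors rose in 6 of 9 cases and fell in 2, semaphorin and plexin effectors rose in 4 of 12 and fell in 5, Eph effectors rose in 5 of 11 and fell in 5, and other guidance ligands and receptors rose in 3 of 11 tested and fell in 5. The largest rises were those of Gpc1, a glypican that binds Slit proteins (log2 5.16 ± 0.26, SE), the actin regulator Enah (4.66 ± 0.34) and the small GTPase Rnd1, which acts on plexins (3.37 ± 0.30). The largest falls were those of Ntn4, a netrin (-3.09 ± 0.18), Kalrn, a guanine nucleotide exchange factor (-2.82 ± 0.14), and Draxin, a repulsive guidance ligand (-2.68 ± 0.82), whose groups overlapped. Dcc, the netrin receptor, was at a mean of 0.00349 CPM in tumor, had no reads in small intestine and was not tested.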

How the data were processed

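Polyadenylated RNA of 4 tumor and 4 small intestine samples was sequenced. The authors deposited whole-number read counts per Ensembl gene, used as deposited, and a table of FPKM values that the authors scaled for gene length and library size. The submitters' processing notes name STAR, HTSeq 0.6.0, Cufflinks 2.2.1 and FastQC, with build GRCm38. No source used here gives the annotation release, strand setting or handling of shared reads, so overlapping genes cannot be told apart where reads are shared.

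Through Ensembl identifiers, 42462 of 43629 genes received a symbol, and coordinates come from GENCODE on GRCm38. Counts were tested with edgeR 4.0.16 in R 4.3.3 (glmQLFit, glmQLFTest, TMM, filterByExpr, tissue as the only term, Benjamini-Hochberg adjustment over all genes). Standard errors are the fold change divided by the root of the F statistic. Library totals give a 3-count level of 0.0355 to 0.0557 CPM before composition scaling. Library pairs within a tissue differed beyond sampling noise (chi-square statistics of at least 38.9 times their degrees of freedom).

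Values in each library are given for Ephb2, Ephb3, Ephb4, Efnb1 and Efnb2, for the member with the highest mean FPKM of each family, and for up to 2 called members with the largest rise and fall of each family at a mean of at least 1 CPM in the higher tissue. The members and lists were chosen with earlier results of these data known. Alternatives were other scalings, filters, DESeq2 1.42.0, limma 3.58.1 on log2(FPKM + 1) or log2(FPKM + 0.1), the replicate number as a block, and leaving out each library.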

Additional observations from a re-analysis of the deposited data

Results flagged for a closer look

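In 5 of the 110 groups of 4 libraries examined (guidance genes with at least 10 reads in the group), 1 library stood apart from the other 3 by more than Dixon's 95% limit, and chance flags about 1 in 20 groups. Tumor replicate 2 was high for Epha2, at 156 CPM against 89.6 to 95.0 CPM, and Plxna3 was high in tumor replicate 4, at 11.8 CPM against 6.40 to 6.90 CPM. Sema3g was low in tumor replicate 1, at 2.11 CPM against 3.47 to 3.59 CPM. In small intestine, replicate 4 was high for Sema3b, at 153 CPM against 119 to 125 CPM, and replicate 1 for Sema4c, at 2.40 CPM against 0.760 to 0.932 CPM. Leaving out the library changed the call of none of these 5 genes.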

How the results depend on the processing

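Of the 55 tested guidance genes, 48 kept their side of the threshold under each alternative that gave a value, and the 45 called ones among them kept their direction; Epha2, Plxnc1 and Slit1, not called, each changed sign under at least 1 alternative. With 1 library left out, 36 to 37 of the guidance genes that passed the filter in that fit were called higher and 12 to 13 lower. Plexins then reached 6 called higher and Robo receptors 4, against 5 and 3, through genes outside the 55. With library totals 40 rose and 9 fell. Scaling turned Efnb2 from -0.52 to 0.35 with library totals and to 0.38, 0.40 and 0.38 in the FPKM table with a pseudocount of 1, of 0.1 and without a filter. Sema3b went from -0.32 to 0.55, 0.52, 0.53 and 0.52 in the same order, and Efnb3 to 0.0047 in the FPKM table without a filter. In the FPKM table with a mean of at least 1, 8 guidance genes were called lower with either pseudocount, of fewer genes tested, and 24 higher. Of the partner and effector list, 8 were called lower with library totals and in each of the 3 FPKM fits, against 17. With the replicate block, 36 guidance genes rose and 12 fell, the lost call being Efnb3; same-numbered libraries deviated together with correlations of -0.148 to 0.0139, so the numbers are not taken to pair them. With 1 library left out, a mean share cannot move by more than the SD between libraries of its tissue, so that check says nothing about the shares. CPM in place of FPKM, which drops the length scaling, moved 54 of 118 shares within families by more than this SD. Among them was Plxnb2 in tumor (64.2% to 49.5%). Genes at a few reads in small intestine have fold changes set by those reads.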

Other observations

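Neighboring guidance genes on a chromosome were compared for direction. On chromosome 3, Efna1, Efna3 and Efna4 lie in a row, 32756 and 10424 bases apart; Efna1 and Efna3 fell (log2 -1.45 and -2.19) while Efna4 rose (1.57), and all 3 kept their sign with library totals. On chromosome 9, Sema3f rose and Sema3b, 72270 bases away, was not called with TMM and was called higher with library totals; the ratio of Sema3f to Sema3b FPKM was 1.44 to 1.71 in tumor and 0.00648 to 0.0169 in small intestine. On chromosome 6, Ephb6 rose by 5.38 and Epha1, 737977 bases away, fell by 2.27. The Sema3d, Sema3a and Sema3e genes, consecutive guidance genes of chromosome 5, all rose (1.75, 5.62 and 5.79). Robo4 and Robo3 lie 553 bases apart on chromosome 9, with 2871 and 34 reads in the tumor libraries.

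Tumor replicate 4 was the lowest tumor library for 23 of the 49 called guidance genes. Over all 49, its median level was 0.935 of the mean of the other libraries. Small intestine replicate 3 was the lowest of its group for 19 of the 49, and its median over all 49 was 0.677. For 22 of the 49, small intestine replicate 1 stood highest in its tissue. The same counts over all genes tested were not made, so these are not read as traits of guidance genes.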
